A study of Mus musculus with 3 samples.

Results

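The Zfp genes are the mouse genes named zinc finger protein and a number, and 80 of the 390 annotated protein-coding Zfp genes (20.5%, 95% Wilson interval 16.8 to 24.8) held at least 1 predicted N6-methyladenosine (m6A) site in RAW264.7 macrophages. Members were selected on this list of sites: a gene belonged if its name was Zfp followed by a number (Zfp36, Zfp36l1, Zfp36l2 and Zfp36l3, which carry another type of finger, were left out) and if a site lay inside it on its strand. They held 306 of the 19301 sites of the list. Over all annotated protein-coding genes the share with a site was 23.1%, so having a site was about as frequent among Zfp genes as among others and is no result about the family.

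The data came from 3 replicates of untreated RAW264.7 cells, a mouse macrophage line derived from a virus-induced tumour, called biological replicates in the design text of the series. Poly(A)+ RNA was fragmented, bound and UV-crosslinked to an anti-m6A antibody, and sequenced by miCLIP2, in which reverse transcription stops at the crosslinked nucleotide. The machine learning model m6Aboost, trained by the study on mouse embryonic stem cells with and without the methyltransferase Mettl3, scored adenosines under the miCLIP2 peaks. One list was made from the 3 replicates together, so it allows no comparison between replicates and no test across samples, and no sample lacking Mettl3 stands beside these cells.

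Each entry of the list gives a position and a score between 0.5 and 1. The score grades the call and is not a methylation level, and the number of reads behind a site is unknown. The list holds no expression values, so a gene that was not expressed and a gene that was expressed without a called site cannot be told apart. Of 8 macrophage marker genes 4 held a site, namely Csf1r, Cd14, Spi1 and Lyz2, beside 23.1% of all protein-coding genes, and Adgre1, Cd68, Itgam and Mrc1 held none. All 19301 sites fell on an A of the mouse genome GRCm38. Intervals on shares are 95% Wilson intervals, cover counting error only and treat sites as independent, although sites of 1 gene share a transcript.

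Classical C2H2 zinc fingers are short repeats in which a pair of cysteines and a pair of histidines hold a zinc ion, and tandem arrays of them read DNA, or RNA, sequence. Many mouse Zfp proteins join such an array to a KRAB domain, which recruits Trim28, and through it Setdb1 and other chromatin proteins, to silence retroelements and imprinted regions. In many of these genes the whole array is encoded by a single long last coding exon. m6A is placed on mRNA by the Mettl3-Mettl14 complex, mostly at the DRACH motif (D is A, G or T, R is A or G, H is A, C or T) in long internal exons and around stop codons.

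The highest-scoring site of each of the 5 members that led by score is printed here to show what the calls look like, as 21 bases of GRCm38 read 5′ to 3′ on the strand of the gene, with the pentamer centred on the called A in capitals. The scores ran from 0.975 in Zfp146 (chr7:30161512-30161532, minus strand, 3′ UTR) and 0.959 in Zfp131 (chr13:119766722-119766742, minus strand, CDS) to 0.954 in Zfp263 (chr16:3749522-3749542, plus strand, CDS), 0.943 in Zfp362 (chr4:128774325-128774345, minus strand, 3′ UTR) and 0.936 in Zfp91 (chr19:12770017-12770037, minus strand, 3′ UTR). All 5 lay in the last coding exon of their transcript, and none of their pentamers was the same as another's.
Zfp146: gcagtgctGAACTgtgaacac
Zfp131: cgcacaagTAACTgtggaaca
Zfp263: tggagaagAAACTctttgaat
Zfp362: aagattctGGACTgttctggt
Zfp91: gcaaaggaAGACTttgggcac

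Zfp146 codes for a protein made almost wholly of zinc fingers, Zfp131 carries a BTB domain, Zfp263 is a SCAN domain transcription factor, and Zfp91 is an atypical ubiquitin ligase that modifies the kinase NIK. At the other end of the scale, the 3 members' sites just inside the threshold were in Zfp263 (0.501), Zfp740 (0.502) and Zfp422 (0.505). Zfp263 thus held both 1 of the 3 highest and the lowest score of the family. Sites below 0.5 are not in the list. The median score of the 306 sites was 0.697 (quartiles 0.610 and 0.810) against 0.735 (0.627 and 0.833) for sites of other protein-coding genes. By region the medians for Zfp and other genes respectively were 0.766 and 0.786 in the 3′ UTR, 0.559 and 0.620 in the 5′ UTR, where Zfp genes had 9 sites, and 0.684 and 0.70 in the CDS.

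On the transcript with the longest CDS of each gene, 297 of the 306 sites (97.1%) lay in an exon, 2 in an intron and 7 outside. Most of the exonic sites lay in coding sequence: 228 (76.8%, 71.6 to 81.2) were in the CDS, 60 (20.2%, 16.0 to 25.1) in the 3′ UTR and 9 (3.03%) in the 5′ UTR. In other protein-coding genes the CDS held 52.6% (51.9 to 53.4) and the 3′ UTR 45.1% of 18437 placements, where a site in overlapping genes was placed once for each gene. The CDS share of the Zfp genes was the higher one and the intervals did not overlap. At a minimum score of 0.9 it was 50% of 16 sites (28 to 72). This interval includes the 52.6%, which is for other genes at all scores, and their share at 0.9 was not taken. Of the 80 genes, 52 held CDS sites and no 3′ UTR site, 9 the reverse, 17 both and 2 neither.

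**Figure D1:**
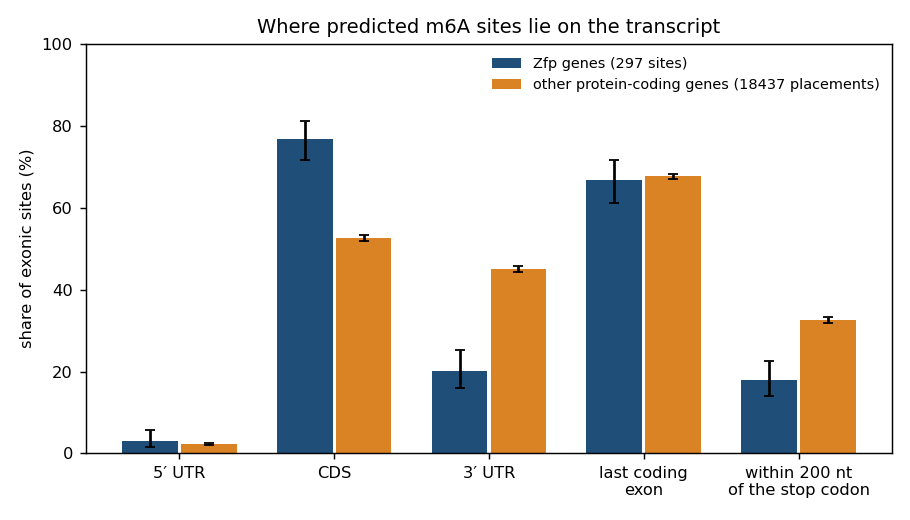
Share of exonic sites (per cent, vertical axis) by transcript region for Zfp genes (blue, 297 sites) and other protein-coding genes (orange, 18437 placements), with bars for 95% Wilson intervals. The Zfp genes have 76.8% of sites in the CDS against 52.6%, and, over pooled sites, 66.7% against 67.6% in the last coding exon.

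The share in the last coding exon, the exon that holds the last base of the CDS, was 198 of 297 (66.7%, 61.1 to 71.8), next to 67.6% in other genes. This likeness holds for pooled sites: as a mean over genes, each counted once, the shares were 76.2% and 67.7%, and on the longest spliced transcript the Zfp share was 71.9%. Among CDS sites alone, 135 of 228 (59.2%, 52.7 to 65.4) lay in the last coding exon of a Zfp gene, against 45.9% (44.9 to 46.9) elsewhere. At a minimum score of 0.9 this was 62.5% of 8 sites (30.6 to 86.3), an interval that includes the 45.9% of other genes at all scores. A further 90 CDS sites (39.5%) lay in another exon of at least 400 nt, close to the 39.7% of other genes. Only 3 CDS sites (1.32%, 0.448 to 3.80) lay in a shorter exon, against 14.4% (13.7 to 15.1) in other genes. Counted by gene, 52 members had all their exonic sites in the last coding exon (140 sites), 13 had none there, 14 had both kinds and 1 had no exonic site.

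The gene structure differed between the sets too, and its relation to these shares was not tested. The coding part of the last coding exon had a median length of 968.5 nt in Zfp genes with a site, 66.1% of the CDS, and of 159 nt, 11.8% of the CDS, in other genes with a site. In Zfp genes without a site it was longer still, 1387 nt or 86.4% of the CDS. Median CDS lengths were 1825.5 nt, 1443 nt and 1705.5 nt in the same order, and median 3′ UTR lengths 1252.5 nt, 1015 nt and 1090 nt.

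A smaller share of sites lay around the stop codon. Within 200 nt of it lay 53 of 297 exonic sites (17.8%, 13.9 to 22.6), against 32.6% (31.9 to 33.3) in other protein-coding genes. At a minimum score of 0.9 the share was 25% of 16 sites (10.2 to 49.5), which includes the 32.6% of other genes at all scores. The 200 nt upstream held 28 sites (9.43%, against 12.2%) and the 200 nt downstream 25 (8.42%, against 20.4%). Further upstream the order turned, and each of the 3 bins of 200 nt between 1000 and 400 nt before the stop codon held between 8.75% and 9.43% of Zfp sites, against 4.02% to 4.92% in other genes.

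**Figure D2:**
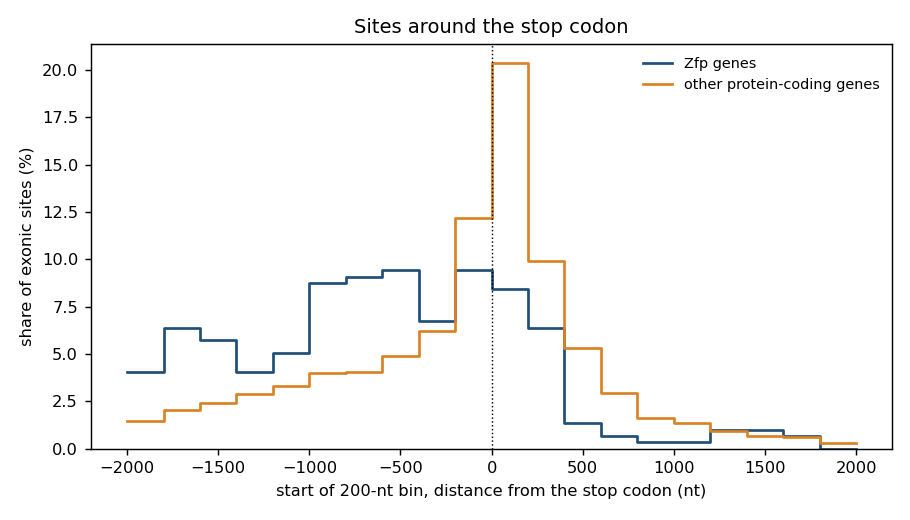
Share of exonic sites (per cent, vertical axis) in 200-nt bins of distance from the stop codon on the spliced transcript (horizontal axis, nt; negative values are upstream) for Zfp (blue) and other protein-coding genes (orange), with sites beyond the ends of the axis left out of the drawing. Other genes peak at 20.4% in the bin after the stop codon, where Zfp genes have 8.42%.

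Counts of sites depend on how many motifs a region offers, so the share of DRACH motifs that were listed was taken over the transcripts of genes with a site. It was 4.64% over all protein-coding genes, 276 of 6498 (4.25%) in Zfp genes and 4.65% in the others. By region the Zfp share was 6.56% in the CDS (213 of 3249, 5.76 to 7.46; others 4.51%) and 1.89% in the 3′ UTR (55 of 2904, 1.46 to 2.46; others 5.08%). Within the last coding exon the order was the opposite of that in the CDS as a whole: 126 of 1484 coding motifs (8.49%) were listed in Zfp genes and 12.8% in other genes. In other exons of at least 400 nt the values were 8.37% and 10.1%, and in shorter exons 0.394% and 0.969%. The intervals of Zfp and other genes overlapped for both of these classes and did not for the last coding exon. Only genes with at least 1 site entered, so these shares describe the selected genes.

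**Figure D3:**
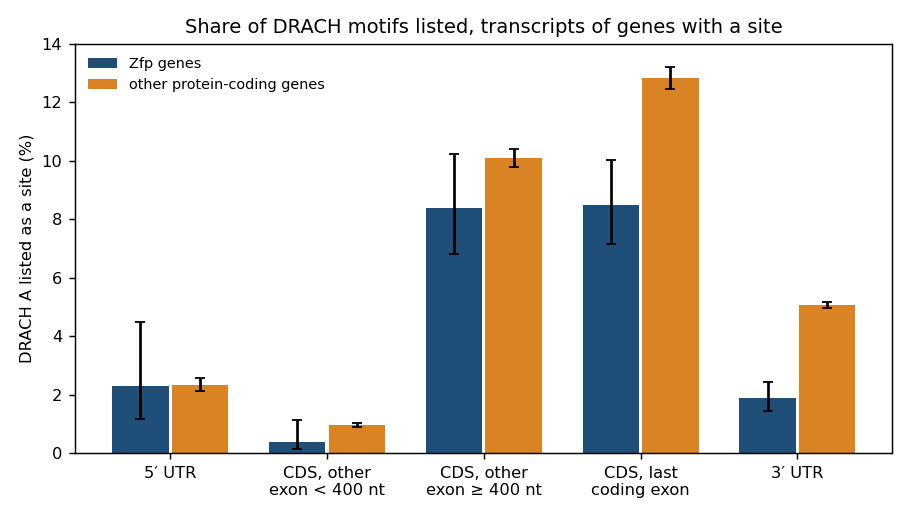
Share of DRACH adenosines listed as sites (per cent, vertical axis) by transcript region and exon class in Zfp (blue) and other protein-coding genes (orange) with at least 1 site, with 95% Wilson intervals. In both, coding motifs in exons under 400 nt are listed least (0.394% and 0.969%) and those in the last coding exon reach 8.49% and 12.8%.

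The start of the last coding exon, next to the splice junction, was compared with the part further in. Some coding motifs of that exon counted above did not enter, in Zfp and in other genes. In its first 100 nt, 5 of 162 coding DRACH motifs of Zfp genes (3.09%, 1.33 to 7.02) were sites, and further in 117 of 1303 (8.98%, 7.55 to 10.7), intervals that did not overlap. The same pair in other protein-coding genes was 5.23% and 16.0%.

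Members held a median of 2 sites (quartiles 1 and 5), and other protein-coding genes with a site a median of 3 (1 and 5). A single site was found in 26 of 80 members (32.5%, 23.2 to 43.4; others 25.8%), and 10 or more in 7 (8.75%, others 7.36%). The 10 members with most sites held 117 of the 306. Clustering of sites was alike, since 179 of 297 exonic Zfp sites (60.3%) and 60.0% of the others had another site within 100 nt on the transcript.

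**Figure D4:**
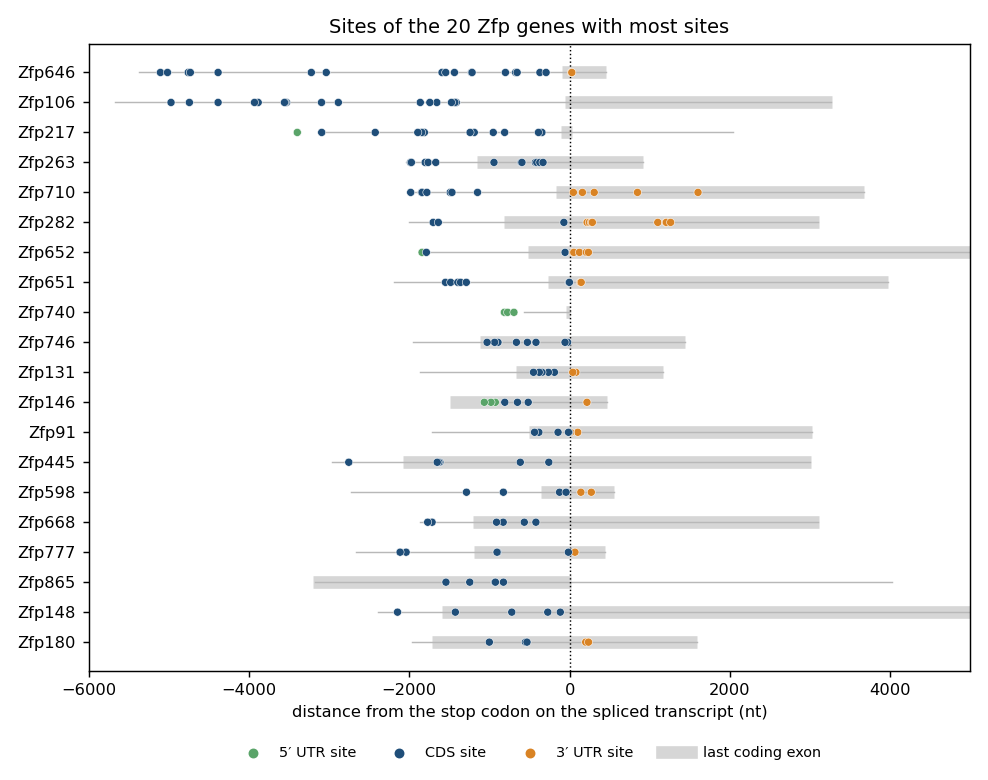
Sites of the 20 Zfp genes with most sites, 1 gene per row (vertical axis), by distance from the stop codon on the spliced transcript (horizontal axis, nt, cut at 5000); thin lines span the CDS and 3′ UTR, grey bars the last coding exon, and points are sites coloured by region. Zfp646, Zfp106 and Zfp217 carry their CDS sites upstream of a last coding exon with little coding sequence, and Zfp746, Zfp131 and Zfp91 carry all of theirs inside it.

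Zfp646, with 27 fingers, led with 19 sites at chr7:127876221-127885996 (plus strand). Its CDS sites, 17 in all, lay in exon 2 of 3, which is 5349 nt long, while the last coding exon holds 101 nt of coding sequence and had 2 sites, 21 and 28 nt after the first base of the stop codon. Their scores ran from 0.507 to 0.880. The gene therefore concentrated its sites in 1 long exon, though not in the last one.

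Zfp106, an RNA-binding protein needed for motor neuron maintenance, had 16 sites (chr2:120506820-120563843, minus strand), all in the CDS and none in the last coding exon. They lay in exons 5, 6 and 11 of 22, which are 2169, 628 and 760 nt long, and the last coding exon has 57 coding nt. Most of its scores were low, with a median of 0.629. Zfp217, a partner of the CtBP and Lsd1 corepressors that is also known to bind Mettl3, had 12 sites, of which 6 lay in exon 2 (1735 nt) and 6 in exon 4 (1512 nt). None of them lay in the last coding exon, and 1 was in the 5′ UTR.

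Zfp710 divided its 12 sites between 7 in exon 2 (1492 nt, scores 0.518 to 0.878) and 5 in the 3′ UTR part of the last coding exon, 47 to 1602 nt after the stop codon. Zfp263 had 12 sites in the CDS, 5 in exon 1 (675 nt) and 7 in the last coding exon (2070 nt). Of the sites of Zfp282, a repressor first known from a retroviral promoter, 8 of 11 lay in the 3′ UTR, between 218 and 1260 nt after the stop codon. Zfp652, a partner of the corepressor Cbfa2t3, had 10 sites, 5 of them in the 3′ UTR of a last coding exon of 8815 nt, all within 235 nt of the stop codon. The rest of that 3′ UTR carried no site. Another 2 of the 10, with scores of 0.910 and 0.819, lay outside this transcript, where another protein-coding gene overlaps Zfp652.

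The 8 sites of Zfp746, a repressor of the metabolic coactivator PGC-1α and a substrate of Parkin, all lay in the coding part of the last coding exon, with a median score of 0.615. Zfp131 and Zfp91 each had 7 sites, 5 coding and 2 in the 3′ UTR, all in the last coding exon, with medians of 0.764 and 0.812. Zfp513 had 5 coding sites there (0.542 to 0.903). Zfp651 had 9 sites, of which 4 were in the last coding exon. Zfp740 had 8 sites, of which 5 fell outside the transcript with its longest CDS and 3 in the 5′ UTR of that transcript. It has no annotated stop codon.

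The 5 members with the longest last coding exon had between 1 and 10 sites. Besides Zfp652, these were Zfp871 (10513 nt) with 2 sites, both in the 3′ UTR, Zfp148 (8618 nt) with 5 coding sites, 4 of them in the last coding exon, Zfp275 (5860 nt) with 1, and Zfp629 (5532 nt) with 4, all in the 3′ UTR.

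By role, counts are set beside 20.5% of all Zfp genes and 23.1% of all protein-coding genes with a site. Of the retroelement and imprint silencing genes 2 of 9 had a site, near both of these shares. These were Zfp445, which protects imprinted regions, with 6 coding sites (0.534 to 0.875), and Zfp638, which silences unintegrated retroviral DNA together with the HUSH complex, with 4. Zfp57, the main imprint guardian, and Zfp809, a retrovirus silencer, had no site. Of the transcription factors and promoter-binding proteins, 7 of 13 had a site. Besides Zfp263 and Zfp131 these were Zfp148, which binds GC-rich promoters (5 sites), Zfp24 (2), Zfp281, a regulator of pluripotency genes (1), Zfp384 (1) and Zfp219 (1).

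In the group of corepressor and chromatin proteins 7 of 10 had a site, again beside 20.5% of all Zfp genes: Zfp217 and Zfp652, then Zfp703, a corepressor amplified in breast cancer, with 5, all in the last coding exon, Zfp592 (4) and Zfp687 (3), which share a complex with Zmynd8, Zfp644, a partner of the histone methyltransferases Ehmt1 and Ehmt2 (1), and Zfp609 (1). Of the proteins acting on RNA, ribosomes, the spindle or ubiquitin 5 of 9 had a site. Zfp598, the ubiquitin ligase that marks collided ribosomes, carried 6 sites (median score 0.809), with 4 in the last coding exon. Zfp106 and Zfp91 are above, Zfp622, a factor in large ribosomal subunit maturation, had 2, and Zfp385a had 1. These groups are small, and none is called different from another.

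A KRAB pattern, a text match on the translated proteins, was found in 223 of the 390 genes. Of these 13 (5.83%, 3.44 to 9.72) had a site, against 67 of 167 (40.1%, 33.0 to 47.7) of the genes with no match. The share over all Zfp genes was 20.5% and over all protein-coding genes 23.1%, which the first set lay below and the second above. Expression and mappability were not measured here, and their part in this was not tested. Divergent KRAB boxes, such as those of Zfp445, Zfp180, Zfp263 and Zfp282, were not matched by the pattern.

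The 13 genes were Zfp1, Zfp84, Zfp111, Zfp317, Zfp324, Zfp472, Zfp655, Zfp715, Zfp747, Zfp777, Zfp790, Zfp871 and Zfp961. They held 29 sites, of which 25 (86.2%) were coding, and 23 of those 25 (92.0%) lay in the last coding exon. Members with no KRAB pattern had 203 of 268 exonic sites (75.7%) in the CDS and 112 of the 203 (55.2%) in the last coding exon. The coding part of that exon had a median of 1433 nt over all genes with the pattern and 821 nt over all genes without it, and the proteins had medians of 12 and 7 fingers. Scores of the 2 sets lay close, with medians of 0.677 and 0.698. Zfp777 had most sites of the 13, with 6, and Zfp111 the highest score, 0.923.

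The fingers themselves carried part of the sites. Fingers, with the linkers that join them, made up 31.8% of the coding nucleotides of the 80 genes and held 49 of the 228 CDS sites (21.5%, 16.7 to 27.3), in 27 genes. Per motif, 46 of 825 DRACH adenosines in fingers were listed (5.58%, 4.21 to 7.36) and 167 of 2424 outside them (6.89%, 5.95 to 7.97), and these intervals overlapped. Of the 49 sites 41 could be placed on a repeat of 28 residues, with cysteines at residues 1 and 4, histidines at 17 and 21 and the linker from 22 on.

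On this repeat 2 codon positions led, and they were singled out after the counts were seen. The first base of codon 20, just before the second histidine, held 11 sites in 9 genes, 11 of the 68 DRACH adenosines at that place (16.2%, 9.28 to 26.7). The middle base of codon 3, just before the second cysteine, held 8 sites in 8 genes, 7 of them among 41 DRACH adenosines (17.1%, 8.53 to 31.3). Other places held more DRACH adenosines. The third base of codon 16 had 71 and 1 was a site (1.41%, 0.249 to 7.56), and the third base of codon 25, in the linker, had 92 and 4 were sites (4.35%, 1.70 to 10.7). Both intervals include the 5.58% of all fingers, and that of codon 25 overlaps those of codons 20 and 3.

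**Figure D5:**
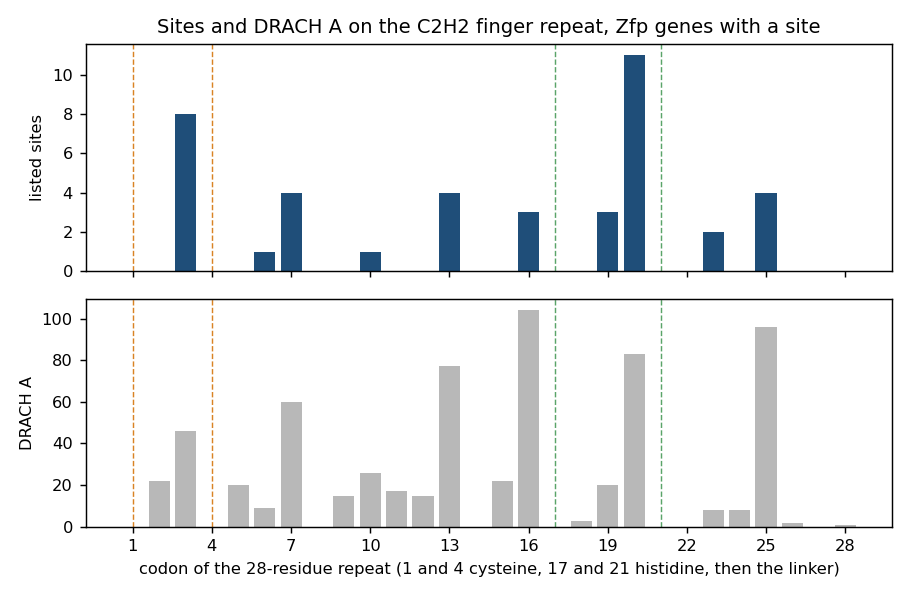
Number of listed sites (upper panel) and of DRACH adenosines (lower panel) at each codon of the 28-residue C2H2 repeat (horizontal axis), summed over the 3 codon bases and over the finger arrays of Zfp genes with a site; dashed lines mark the cysteine codons (orange) and histidine codons (green). Codons 20 and 3 hold 11 and 8 sites, while codons 16 and 25 hold more DRACH adenosines and 3 and 4 sites.

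Finger repeats with a site at these places, chosen after their values were seen, are shown so that the shared frame can be read, each as 84 bases of GRCm38 from the first cysteine codon to the end of the linker, 5′ to 3′ on the strand of the gene, with the pentamer around the called A of that place in capitals. The first 3 have their site in codon 20: Zfp180 (chr7:24105535-24105618, plus strand, score 0.882), Zfp1 (chr8:111670321-111670404, plus strand, 0.783) and Zfp961 (chr8:71968410-71968493, plus strand, 0.701). The other 3 have it in codon 3: Zfp771 (chr7:127254192-127254275, plus strand, 0.783), Zfp623 (chr15:75947977-75948060, plus strand, 0.757) and Zfp27 (chr7:29895753-29895836, minus strand, 0.749). The Zfp180 repeat holds another called A, in lower case here, at AAACT in codon 13, with a score of 0.893.
Zfp180: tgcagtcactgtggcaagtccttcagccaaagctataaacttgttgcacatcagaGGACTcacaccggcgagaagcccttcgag
Zfp1: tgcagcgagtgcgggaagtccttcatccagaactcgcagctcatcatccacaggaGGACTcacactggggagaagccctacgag
Zfp961: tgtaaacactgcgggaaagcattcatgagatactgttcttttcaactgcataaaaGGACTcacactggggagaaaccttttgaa
Zfp771: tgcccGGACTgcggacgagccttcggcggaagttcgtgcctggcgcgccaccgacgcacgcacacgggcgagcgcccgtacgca
Zfp623: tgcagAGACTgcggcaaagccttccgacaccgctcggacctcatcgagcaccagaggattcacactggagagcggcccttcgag
Zfp27: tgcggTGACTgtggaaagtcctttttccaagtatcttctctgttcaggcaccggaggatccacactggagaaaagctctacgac

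Some pentamers were listed at both places. At codon 20 the listed sites were mostly GGACT, 4 of 10, and GAACT, 4 of 15, with AGACT in 1 of 4. At codon 3 they were TGACT, 4 of 16, AGACT, 2 of 11, and GGACT, 1 of 11, besides 1 site at GTACT, which is no DRACH. The linker place of codon 25 was AAACC in 71 of its 92 DRACH motifs, and 1 of these was a site. Over the whole CDS of the 80 genes AAACC was listed in 1 of 289 cases (0.346%) and in 0.218% of cases in other genes. GGACT was listed in 33 of 176 cases (18.8%, 13.7 to 25.2; others 16.0%), GAACT in 28 of 159 (17.6%, 12.5 to 24.3; others 11.5%) and GGACA in 31 of 237 (13.1%, 9.37 to 18.0; others 8.40%). TGACC was a site in 0 of 162 cases, with an upper Wilson bound of 2.32%, and in 0.295% of cases in other genes. m6Aboost takes the 21 bases around a site and the transcript region as inputs, so the part of the model in these shares was not tested.

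Of the 306 sites 284 (92.8%) lay at DRACH, next to 92.0% in other protein-coding genes. The leading pentamers were GGACT (46 sites, 15.0%), GGACA (45, 14.7%), AGACT (42, 13.7%) and GAACT (39, 12.7%). Over the 19180 sites in protein-coding genes the same pentamers made up 19.3%, 13.2%, 12.3% and 13.1%. GGACC made up 9.15% of Zfp sites and 6.92% of the sites in protein-coding genes. The 22 other sites had a median score of 0.635 against 0.704 for DRACH sites. GGACG was the most frequent of their pentamers, with 11 sites (3.59%, 2.02 to 6.32), beside 1.96% of the sites in protein-coding genes.

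The 2 highest-scoring GGACG sites of the named members are printed to show this pentamer, in capitals, in 21 bases of GRCm38, 5′ to 3′ on the strand of the gene. They lay in Zfp106 (chr2:120534249-120534269, minus strand, CDS, score 0.912) and Zfp592 (chr7:81024441-81024461, plus strand, CDS, score 0.862), both in a long internal exon.
Zfp106: acccaaaaGGACGgagaacga
Zfp592: aatcaaacGGACGgttaccag

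Some sites could not be given to 1 gene. For 12 members' sites another protein-coding gene overlapped on the same strand. Of these, 6 were those of Zfp865, which overlaps Ccdc106 in the annotation, and 2 were in Zfp652. For 3 sites, 1 in Zfp553 and 2 in Zfp747, the same 21 bases occurred in the transcript of another gene. The Zfp553 site is among those counted at codon 20, and 1 of the Zfp747 sites is among those counted at codon 3. By chromosome, 91 of the 390 annotated Zfp genes lay on chromosome 7, and 25 of them (27.5%, 19.4 to 37.4) had a site, against 55 of 299 (18.4%, 14.4 to 23.2) elsewhere, with overlapping intervals.

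Among the partners of KRAB proteins, 18 of 28 fixed genes had a site, against 23.1% of all protein-coding genes. Trim28, the corepressor that binds KRAB, had none, and Setdb1, its histone methyltransferase, had 6, of which 4 were coding. Morc2a, which compacts chromatin with HUSH, had most with 11, 9 of them in the 3′ UTR. Gatad2a, of the NuRD complex, had 7 (6 in the 3′ UTR), Mbd3, of the same complex, 5, and Ehmt1 and Ehmt2, which methylate histone H3, 5 and 4.

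Other C2H2 families gave the following values, to be read beside 23.1% of all protein-coding genes with a site. Of the Zbtb genes, whose fingers follow a BTB domain, 20 of 41 had a site (48.8%, 34.3 to 63.5), with 77 of 91 sites in the CDS (84.6%, 75.8 to 90.6), 70.3% in the last coding exon and 22.0% within 200 nt of the stop codon. Of the Klf genes, 8 of 17 had a site, with 31.0% of 42 sites in the CDS (19.1 to 46.0) and 66.7% in the 3′ UTR. The Zscan and Zkscan genes had 4 of 19 and 4 of 11 genes with a site, and 11 and 16 sites, of which 9 and 14 were coding. The Zfp share in the CDS, 76.8%, had an interval that overlapped that of Zbtb and not that of Klf.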

How the data were processed

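The authors mapped miCLIP2 reads of 3 replicates with STAR (2.7.3a, from the submitters' processing notes, as are SAMtools 1.9, UMI-tools 1.0.0 and bedtools 2.27.1), kept uniquely mapped reads, called peaks in each replicate, kept positions found in at least 2 replicates and scored them. The deposited list gives 1 m6Aboost score per site for the replicates together, with scores above 0.5, and no counts or depth. Positions were read as 0-based starts.

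Sites were placed by strand with pysam 0.24.0 on GENCODE M21 gene models for GRCm38, a release other than the authors' M23, on the transcript with the longest CDS. Proteins were translated from these transcripts, and C2H2 fingers and KRAB stretches were found by text patterns; the KRAB pattern was widened after the proteins were looked at. Placement and finger search were tested on simulated data. SciPy 1.17.1 and NumPy 2.4.6 under Python 3.11.15 gave counts, medians and Wilson intervals, with no test.

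Members and lists were chosen with earlier results of these data known. Named genes were the members with most sites, the highest scores, most coding or 3′ UTR sites in the last coding exon, the longest last coding exons and most sites outside it, those of the role and KRAB partner lists, and Zfp710. Alternatives covered the score threshold, neighbouring calls, overlapping genes, the transcript, gene names, the motif and the window.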

Additional observations from a re-analysis of the deposited data

How the results depend on the processing

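No paired analysis was possible because 1 pooled list of the 3 replicates was analysed here, and no replicate could be left out for the same reason. Of the alternative values, 63 stayed within the Wilson interval or within 1.5 times the count, and 16 moved further. A minimum score of 0.7 left 151 sites, with 96.0% at DRACH and a median score of 0.812. A minimum of 0.9 left 18 sites in 17 genes, 16 of them exonic, with 81.2% of these in the last coding exon, 50% in the CDS, 25% within 200 nt of the stop codon and a median score of 0.916. At that minimum the CDS share had an interval of 28 to 72 and the stop codon share one of 10.2 to 49.5. These include the values of other protein-coding genes at all scores, 52.6% and 32.6%. The shares of other genes at that minimum were not taken. The share in the last coding exon was 71.9% on the longest spliced transcript and 76.2% as a mean over 79 genes, each counted once (67.7% in other protein-coding genes). Within 100 nt of the stop codon lay 10.8% of sites and within 400 nt 31.0%. The motif share was 83.0% for RRACH and 99.7% for AC, and 0% when the start was read as 1-based, which moves every site off its A. For the other movements the cause was not tested. The depth behind a site is unknown, so a gene with few sites cannot be told apart from a gene with few reads.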
